A study of Homo sapiens with 12 samples.

Results

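The 10 genes DNMT1, DNMT3A, DNMT3B, UHRF1, TET1, TET2, TET3, EZH2, TRIM28 and SETDB1, which write, copy, remove or act with repressive chromatin marks, were read from mRNA-seq of glioblastoma cells by their symbols. All 10 were present among the 58174 gene identifiers of each table. Both cell lines used, U87 and U118, were established from human glioblastomas, a brain tumour treated with the alkylating agent temozolomide (TMZ). In both, CD133-CD15- cells were sorted and cultured with serum and BMP2. Aggregation cells, labelled resistant, grew out of such cells after continuous exposure to 50 µM TMZ, and control cells, labelled sensitive, are CD133-CD15- cells not given TMZ. Aggregations are described in the study as rare, arising only after weeks of exposure. The 4 groups had 3 libraries each, which makes 12. No label says that they came from separate cultures, so p-values measure the spread between these libraries, which may be technical.

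DNA methylation at CpG sites is laid down by DNMT3A and DNMT3B and copied to the new strand after replication by DNMT1, which UHRF1 brings to half-methylated DNA. TET1, TET2 and TET3 oxidise methylcytosine with 2-oxoglutarate as cosubstrate, which opens the way to its removal. EZH2 is the catalytic subunit of Polycomb repressive complex 2 (PRC2) and methylates histone H3 at lysine 27, while TRIM28 (KAP1) is brought to DNA by zinc finger proteins and recruits SETDB1, which methylates H3 at lysine 9 (H3K9). In glioblastoma, promoter methylation of a DNA repair gene is a known marker of response to TMZ.

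The deposited values are TPM, the share of a library's transcripts that come from a gene after scaling for length. They keep no read depth. Every library has the same total, but the libraries differ in composition and each line has its own table. Levels of the lines are therefore set side by side as a description only. Control and aggregation libraries were compared within each line by limma on log2(TPM + 1), over the genes that reached 1 TPM in 3 or more libraries. Calls required both an adjusted p (Benjamini-Hochberg) under 0.05 and a change of 1 or more, up or down, on the log2 scale, and genes at an adjusted p under 0.05 alone are described as passing at any fold. Each log2 fold change is the aggregation mean minus the control mean of log2(TPM + 1), a scale that understates changes of low genes. An exact two-sided permutation test of 3 against 3 libraries cannot reach a p under 0.1, and was not run on single genes.

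The libraries labelled U118 aggregation stood nearer to U87 than to their own control. Across 16382 genes their Spearman's rho was 0.808 to 0.839 with U118 control libraries, 0.895 to 0.909 with U87 control and 0.907 to 0.913 with U87 aggregation. There were 142 genes at 10 TPM or more in all U118 control libraries and under 1 TPM in all U118 aggregation libraries. Of these, 112 were also under 1 TPM in all U87 control libraries. In the other direction, 91 genes were under 1 TPM in all U118 control and at 10 TPM or more in all U118 aggregation libraries. Among those, 55 were at 10 TPM or more in all U87 control libraries. The matching shares over all genes were not computed. The 10 regulators also stood nearer to U87 on the log2(TPM + 1) scale. The root mean square difference of their means from U118 aggregation was 0.624 for U87 control and 0.631 for U87 aggregation, against 1.08 for U118 control. The origin of these libraries was not tested, and every U118 value below rests on their label, since without them no U118 comparison can be made. The U87 comparison does not use them. U118 aggregation replicate 1 also differed from the other 2, with 13.2% of its TPM in mitochondrially encoded genes against 29.9% and 26.1%.

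Mitochondrially encoded genes took 12.9% to 16.9% of TPM in U87 control, 22.2% to 23.7% in U87 aggregation and 7.42% to 19.7% in U118 control libraries. A larger share lowers the TPM of all other genes. Over all genes tested the median of the log2 fold changes was -0.24 in U87 and -0.52 in U118. It was -0.01 and -0.02 once each library was divided by the median ratio of its genes to their means over libraries (median-ratio scaling). That scaling brings this median near 0 by construction, so these 2 values do not bear on the cause of the shift, which was not tested. With that scaling the calls over all genes went from 419 higher and 1078 lower to 663 and 543 in U87, and from 1341 and 4134 to 2337 and 1981 in U118. As a check of the cell type, VIM was at 4430 TPM or more in every library, while GFAP, the astrocyte filament gene, was at most 0.693 TPM and SOX2 at most 0.55. Of 12 glioma markers, 8 in U87 and 6 in U118 reached 1 TPM in 3 or more libraries. S100B and AQP4, like GFAP and SOX2, did not in either line, nor did OLIG2 and FABP7 in U118. Means in U87 and U118 control were 345 and 801 TPM for CD44, 25.5 and 73.0 for EGFR and 7.78 and 6.76 for NES. CHI3L1 had 66.4 and 1.5, and NCAM1 16.3 and 8.16, while in U87 control OLIG2 had 3.0 and FABP7 1.92. NCAM1 was called lower in U87 (-1.78) and EGFR in U118 (-1.40, up to -0.86 over the alternatives run on it). Of the markers of immune, endothelial and epithelial cells, all but CD68 summed to 7.9 to 8.88 TPM in U87 control, 11.6 to 13.1 in U87 aggregation, 2.41 to 3.71 in U118 control and 11.4 to 20.4 in U118 aggregation libraries. The epithelial gene KRT8 was called higher in U118 (2.43, limma adjusted p = 0.000195), with means of 1.25 TPM in control and 11.4 in aggregation. At any fold, KRT8 passed higher in U87 (0.53, adjusted p = 0.0222) and KRT18 in U118 (0.98, adjusted p = 0.00157). CD68, a lysosomal gene, was at 170 to 379 TPM throughout.

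In U87, none of the 8 regulators tested was called, and 5 of them passed at any fold, all lower in aggregation cells. These were UHRF1, EZH2, TET3, TRIM28 and DNMT1. Of all 13845 genes tested in U87, 10.8% were called (3.03% higher and 7.79% lower), and 39.1% passed at any fold (9.43% higher and 29.7% lower). The same 5 regulators had an unadjusted p under 0.05 in limma. In U118, 5 of the 9 regulators tested were called, all lower: DNMT3A, UHRF1, DNMT1, DNMT3B and TET2. TET3 passed at any fold, which makes 6, and it reached the size for a call without U118 control replicate 2 or aggregation replicate 1 (-1.06). Among 15527 genes tested in U118, 35.3% were called (8.64% higher and 26.6% lower), and 51.3% passed at any fold (12.2% higher and 39.1% lower). DNMT3A and TET2 in U118 reached the filter only through the 3 control libraries, and TET3 in U87 through 3 control and 1 aggregation library, so they had to differ. The counts include them and are a description that lends no support. TET1 in both lines and TET2 in U87 were below the filter. The median log2 fold change of the regulators tested was -0.32 in U87 and -1.19 in U118, and -0.11 and -0.66 with median-ratio scaling. Without mitochondrially encoded genes the same 5 regulators were called in U118, from -1.95 for DNMT3A to -1.02 for DNMT1. None was called in U87, where DNMT1 and TRIM28 no longer passed (limma adjusted p = 0.231 and 0.199). In bulk RNA, fewer cells expressing a gene and less RNA per cell cannot be told apart.

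DNMT1 (ENSG00000130816, chr19:10133345-10231286, minus strand of GRCh38) copies methylation after replication. In U87 it was at 62.1, 71.5 and 69.9 TPM in control libraries and at 56.9, 51.0 and 57.4 TPM in aggregation libraries. In U118 the values were 219, 241 and 229 TPM against 109, 94.3 and 92.3 TPM. The groups did not overlap in either line, and U118 aggregation libraries stayed above all U87 libraries. DNMT1 had a log2 fold change of -0.29 in U87 (standard error 0.09, limma adjusted p = 0.0434), but -0.03 (adjusted p = 0.84) with median-ratio scaling, and it no longer passed without any 1 library (adjusted p 0.079 to 0.129 by limma) other than control replicate 1 (adjusted p = 0.0277). Its change in U118 was -1.21 (standard error 0.19, limma adjusted p = 0.000863) and -0.66 (adjusted p = 0.0241) with that scaling, below the fold needed for a call. DNMT1 made up most of the summed TPM of the 3 methyltransferases, with 87.6% ± 2.59 in U87 control, 88.6% ± 0.592 in U87 aggregation, 94.9% ± 0.409 in U118 control and 96.9% ± 1.04 in U118 aggregation (SD, n = 3). That sum went from 242 ± 12.2 to 102 ± 10.8 TPM in U118 and from 77.6 ± 7.76 to 62.3 ± 4.4 in U87.

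UHRF1 (ENSG00000276043, chr19:4903080-4962154, plus strand) reads half-methylated CpG sites and recruits DNMT1. It was at 77.8, 89.7 and 81.4 TPM in U87 control and at 52.2, 48.3 and 54.3 TPM in U87 aggregation libraries. U118 control libraries had 170, 194 and 145 TPM and U118 aggregation libraries 91.5, 53.3 and 54.2 TPM in aggregation libraries. All aggregation libraries were below all control libraries of their line, and U118 aggregation replicate 1 stood above the other 2. UHRF1 changed by -0.67 on the log2 scale in U87 (standard error 0.09, limma adjusted p = 0.0015), and -0.41 (adjusted p = 0.0188) with median-ratio scaling. It passed at any fold in U87 under each of the 13 alternatives run on that value. For U118 it was -1.38 (standard error 0.26, limma adjusted p = 0.00232), -1.63 without aggregation replicate 1, and -0.82 (adjusted p = 0.00573) with median-ratio scaling, below the fold for a call.

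The starts of DNMT1, UHRF1 and EZH2 are shown because they hold letters of the kind bound by E2F factors, which drive genes of DNA replication. Windows of 300 bases around 22 start sites of 9 regulators were taken from RefSeq on GRCh38.p14, 250 bases before the start site and 50 from it on. The letters searched on both strands were TTTCCCGC, TTTGGCGC, TTTCGCGC and TTTGCCGC, no 2 of which can match at the same position of a strand. They were in 4 of the 22 windows (18.2%), in 3 regulators, and in 3.31% of all 35116 windows. Of 14 proliferation genes with a window, 8 held them, as did 3.99% of the 27305 gene symbols with a window. The stretches below run 5′ to 3′ on the gene's strand and end with the first 20 bases of the transcript, and capitals mark the match. The first base of the match lies at -2 in DNMT1, -14 in UHRF1 and 2 in EZH2, counted from the start site as 1 with no 0. A second UHRF1 window, around a later start site, held TTTCGCGC at -160.
DNMT1, chr19:10194934-10195033, minus strand: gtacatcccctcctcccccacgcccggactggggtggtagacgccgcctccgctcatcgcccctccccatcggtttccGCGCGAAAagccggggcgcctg
UHRF1, chr19:4909421-4909520, plus strand: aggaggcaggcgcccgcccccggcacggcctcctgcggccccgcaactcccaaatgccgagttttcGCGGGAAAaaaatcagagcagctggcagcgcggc
EZH2, chr7:148884272-148884371, minus strand: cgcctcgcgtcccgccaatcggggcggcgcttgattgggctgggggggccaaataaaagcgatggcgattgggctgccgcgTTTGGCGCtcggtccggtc
The same stretch is given for DNMT3A and SETDB1, neither with a match in any of its windows. Among the regulators above the filter, DNMT3A had the lowest log2 fold change in U118 and SETDB1 the one nearest to 0 in U87.
DNMT3A, chr2:25342571-25342670, minus strand: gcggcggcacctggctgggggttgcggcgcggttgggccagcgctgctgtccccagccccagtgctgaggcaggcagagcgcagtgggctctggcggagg
SETDB1, chr1:150926183-150926282, plus strand: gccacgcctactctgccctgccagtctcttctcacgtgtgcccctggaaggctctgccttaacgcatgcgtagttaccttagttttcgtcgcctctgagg
The letters TTTGAA, the core of the CHR element of mitotic genes, were in 2 of the 22 windows (9.09%), in DNMT3A and TET2, and in 15.2% of all windows. The median number of CG dinucleotides was 27 per window for the regulators and 14 for all windows. These matches describe the letters in the windows and say nothing of binding.

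DNMT3A (ENSG00000119772, chr2:25227855-25342590, minus strand) is a de novo methyltransferase. In U87 control libraries it was at 1.49, 4.74 and 4.68 TPM and in aggregation libraries at 2.5, 2.23 and 2.69 TPM. The U118 values were 3.74, 6.36 and 5.32 TPM in control and 0.701, 0.703 and 0.344 TPM in aggregation libraries. The U87 groups overlapped because control replicate 1 lay below all 3 aggregation libraries, whereas in U118 every aggregation library was below 1 TPM. This gave a log2 fold change of -1.94 in U118 (standard error 0.23, limma adjusted p = 0.000183), and -1.60 (adjusted p = 0.000528) with median-ratio scaling, still a call. With a pseudocount of 0.1 in place of 1 it was -2.96. These values are a description, since DNMT3A in U118 reached the filter only through control libraries. In U87 the change of -0.32 (95% confidence interval -1.11 to 0.46, limma adjusted p = 0.484) did not pass, but without control replicate 1 it was -0.72 (adjusted p = 0.0143). Without control replicate 2 or 3 it was -0.12 or -0.13 (adjusted p = 0.806 and 0.823).

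DNMT3B (ENSG00000088305, chr20:32762385-32809356, plus strand), the other de novo enzyme, was at 5.01, 6.03 and 7.17 TPM in U87 control and at 4.94, 3.94 and 5.1 TPM in U87 aggregation libraries. The U118 libraries had it at 7.87, 7.71 and 6.0 TPM in control and 4.22, 1.52 and 2.29 TPM in aggregation libraries. The groups overlapped in U87 and not in U118. Its log2 fold change was -1.21 in U118 (standard error 0.30, limma adjusted p = 0.009), -0.78 (adjusted p = 0.0117) with median-ratio scaling and -0.97 (adjusted p = 0.0301) without aggregation replicate 2, both short of the fold for a call. In U87 it was -0.32 (95% confidence interval -0.73 to 0.10, limma adjusted p = 0.197).

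TET1 (ENSG00000138336, chr10:68560656-68694482, plus strand) was the lowest of the 10 regulators in every group. It was at 0.0328, 0.256 and 0.0855 TPM in U87 control, 0.174, 0.0905 and 0.0727 in U87 aggregation, 0.46, 0.492 and 0.492 in U118 control and 0.0302, 0.0214 and 0.0162 TPM in U118 aggregation libraries. All values were below 0.5 TPM, the U87 groups overlapped and the U118 groups did not. TET1 entered a fit only with no filter on low values, where its log2 fold change was -0.53 in U118 (limma adjusted p = 0.00139) and -0.01 in U87 (adjusted p = 0.944).

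TET2 (ENSG00000168769, chr4:105145875-105279816, plus strand) was at 0.743, 1.43 and 0.664 TPM in U87 control and 0.772, 0.557 and 0.647 TPM in U87 aggregation libraries. TPM values in U118 were 2.85, 2.55 and 3.93 TPM in control and 0.707, 0.936 and 0.714 TPM in aggregation libraries. Only 1 U87 library reached 1 TPM, and the U118 aggregation values fell within the range of the U87 control values. As a description, since only control libraries reached the filter, TET2 had a log2 fold change of -1.19 in U118 (standard error 0.20, limma adjusted p = 0.00139), and -0.84 (adjusted p = 0.0103) with median-ratio scaling, short of the fold for a call. With a pseudocount of 0.1 it was -1.84.

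TET3 (ENSG00000187605, chr2:73986404-74108176, plus strand) was the most abundant TET gene, with 68.6% ± 6.88 of the summed TET TPM in U87 control and 61.1% ± 3.47 in U118 control (SD, n = 3). It was at 1.84, 2.63 and 2.18 TPM in U87 control and 0.894, 0.641 and 1.39 TPM in U87 aggregation libraries. U118 libraries held 5.5, 5.31 and 5.89 TPM in control and 2.79, 2.18 and 2.11 TPM in aggregation libraries. Neither line overlapped, and TET3 passed at any fold in both. The log2 fold changes were -0.71 in U87 (standard error 0.19, limma adjusted p = 0.0219) and -0.97 in U118 (standard error 0.21, limma adjusted p = 0.00501), and -0.56 and -0.54 with median-ratio scaling (adjusted p = 0.042 and 0.0256). The U87 value is a description, since only 1 U87 aggregation library reached 1 TPM. In U87, 7 of 12 alternatives gave an adjusted p under 0.05, and the highest was 0.0764 with no filter on low values. It was also above 0.05 without control replicate 3 (0.063), aggregation replicate 1 (0.068) or aggregation replicate 2 (0.0751), and with the replicate number as a block (0.0571). The 3 TET genes together went from 3.28 ± 0.902 to 1.75 ± 0.417 TPM in U87 and from 9.15 ± 1.02 to 3.17 ± 0.347 in U118.

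EZH2 (ENSG00000106462, chr7:148807383-148884321, minus strand) was at 34.5, 50.6 and 39.1 TPM in U87 control and 24.6, 25.9 and 25.8 TPM in U87 aggregation libraries. The values in U118 were 46.2, 46.5 and 61.1 TPM in control and 61.0, 39.7 and 42.2 TPM in aggregation libraries. The U87 groups were apart, and the U118 groups overlapped, with aggregation replicate 1 as high as the highest control library. The log2 fold change in U87 was -0.67 (standard error 0.15, limma adjusted p = 0.0115), and EZH2 passed at any fold in U87 under each of the 13 alternatives run on that value, at -0.41 (adjusted p = 0.0384) with median-ratio scaling. The U118 change was -0.12 (95% confidence interval -0.66 to 0.43, limma adjusted p = 0.7), and it turned to 0.43 (adjusted p = 0.0855) with median-ratio scaling and to 0.08 (adjusted p = 0.786) without mitochondrially encoded genes. Without aggregation replicate 1 it was -0.31 (adjusted p = 0.157).

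TRIM28 (ENSG00000130726, chr19:58544091-58550722, plus strand) was the most abundant of the 10 regulators in all 4 groups. It was at 382, 359 and 390 TPM in U87 control and 295, 309 and 325 TPM in U87 aggregation libraries. U118 had 368, 415 and 285 TPM in control and 258, 275 and 256 TPM in aggregation libraries. No groups overlapped, and control replicate 3 was the lowest of the U118 control libraries, with 19.7% of its TPM in mitochondrially encoded genes. The log2 fold change in U87 was -0.28 (standard error 0.07, limma adjusted p = 0.0142), but -0.02 (adjusted p = 0.919) with median-ratio scaling and just short of passing without control replicate 3 (-0.26, adjusted p = 0.054). For U118 it was -0.42 (95% confidence interval -0.90 to 0.07, limma adjusted p = 0.131), 0.14 (adjusted p = 0.678) with that scaling, and -0.57 (adjusted p = 0.0313) without control replicate 3.

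SETDB1 (ENSG00000143379, chr1:150926263-150964744, plus strand) was at 13.3, 13.5 and 14.9 TPM in U87 control and 14.2, 13.0 and 14.0 TPM in U87 aggregation libraries. U118 libraries had 19.7, 21.3 and 23.4 TPM in control and 20.6, 13.1 and 13.5 TPM in aggregation libraries. Both lines overlapped, in U118 through aggregation replicate 1. The log2 fold change was -0.01 in U87 (95% confidence interval -0.28 to 0.26, limma adjusted p = 0.937) and 0.23 (adjusted p = 0.237) with median-ratio scaling. The U118 value was -0.45 (standard error 0.24, limma adjusted p = 0.149), 0.08 (adjusted p = 0.713) with that scaling, and -0.65 (adjusted p = 0.00739) without aggregation replicate 1. SETDB1 shares 948 of its 7093 exon bases with CERS2 on the opposite strand, which reached 249 TPM, and the strand setting of the counting is not given in the sources used here.

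Ordered by mean TPM, the regulators ran from TRIM28, UHRF1, DNMT1, EZH2, SETDB1 and DNMT3B to DNMT3A, TET3, TET2 and TET1 in U87 control libraries, where only the neighbours DNMT3A and TET3 overlapped. In U118 control libraries DNMT1 (230 ± 10.9 TPM) stood above UHRF1 (170 ± 24.6) and TET3 above DNMT3A, and TET3 overlapped DNMT3A and DNMT3A overlapped TET2. In U87 aggregation libraries DNMT1 (55.1 ± 3.55) and UHRF1 (51.6 ± 3.03) overlapped, and so did TET3 and TET2. In U118 aggregation libraries DNMT3A (0.583 ± 0.207) lay under TET2 (0.786 ± 0.13) with no overlap, while UHRF1 and EZH2 overlapped, as did DNMT3B and TET3. Not overlapping between control and aggregation were 5 regulators in U87 and 8 in U118, all lower in aggregation. Of all genes tested, 53.4% did not overlap in U87 (13.6% higher and 39.8% lower) and 58.6% in U118 (15.7% higher and 42.9% lower). The 8 regulators include TET1, which was not tested.

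The question whether a regulator changed to a different extent in the 2 lines was addressed with an interaction over all 12 libraries, U118 change minus U87 change. DNMT3A was the 1 regulator called of the 9 tested, at -1.62 (standard error 0.42, limma adjusted p = 0.00875). DNMT1 (-0.92, standard error 0.18, adjusted p = 0.00144) and TET2 (-0.98, standard error 0.25, adjusted p = 0.00861) passed at any fold, which makes 3, with a larger fitted decrease in U118 for each. TET2 reached the filter of this fit through the 3 U118 control libraries and 1 U87 library, so that its difference is a description and lends no support. Over 16382 genes, 30.5% were called for a difference (12% higher and 18.5% lower), and 38.1% passed at any fold (15.5% higher and 22.6% lower). With median-ratio scaling these 3 passed again, at -1.45, -0.67 and -0.74. A pseudocount of 0.1 gave -2.58 for DNMT3A, -0.92 for DNMT1 and -1.44 for TET2. UHRF1 (-0.70, adjusted p = 0.0659) and DNMT3B (-0.90, adjusted p = 0.0698) did not pass as fitted. Without U118 aggregation replicate 1, UHRF1 passed at -0.96 (adjusted p = 0.00119) and DNMT3B was called at -1.18 (adjusted p = 0.00381). Without mitochondrially encoded genes both passed (adjusted p = 0.0258 and 0.0409), without U118 control replicate 3 UHRF1 passed (0.0473), and with median-ratio scaling DNMT3B passed at -0.71 (0.0416). For EZH2 the difference was 0.55 (95% confidence interval -0.06 to 1.16, adjusted p = 0.144), and it passed with median-ratio scaling at 0.79 (adjusted p = 0.00955). The differences for TET3 (-0.26, 95% confidence interval -0.82 to 0.30), TRIM28 (-0.13, -0.58 to 0.31) and SETDB1 (-0.44, standard error 0.26) did not pass, but SETDB1 passed without U118 aggregation replicate 1, at -0.64 (adjusted p = 0.0103), and was at -0.20 with median-ratio scaling.

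Median changes over all genes differed with transcript length. In 4 classes of equal size, from the shortest to the longest, the median log2 fold change was -0.32, -0.40, -0.59 and -0.74 in U118 and -0.20, -0.25, -0.25 and -0.28 in U87. DNMT1, DNMT3A, TET2 and TET3, with longest transcripts of 5408 to 11388 bases, lie in the longest class of U118, which starts at 4922 bases. EZH2 (3641 bases), UHRF1 (4309), DNMT3B (4336) and SETDB1 (4437) lie in the class below it, in which UHRF1 and DNMT3B were called lower and EZH2 and SETDB1 did not pass, and TRIM28 (2960 bases) lies in the class below that. The part of length in these values was not tested.

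A ratio of TPM within a library does not move with the scaling of that library, and such ratios are given as descriptions without a test. EZH2 to its paralog EZH1, the less active PRC2 enzyme, was at log2 ratios of 1.80, 2.17 and 1.61 in U87 control and 0.96, 0.96 and 1.00 in U87 aggregation libraries. In U118 it was at 1.10, 1.41 and 1.31 in control and 1.56, 1.87 and 1.94 in aggregation libraries. The ratio was thus lower in all U87 aggregation libraries (mean difference -0.89) and higher in all U118 aggregation libraries (0.51). EZH1 itself did not pass in either line, with log2 fold changes of 0.18 in U87 (limma adjusted p = 0.314) and -0.60 in U118 (adjusted p = 0.116). EZH1 was at 0.10 in U87 without control replicate 1 and 0.43 (adjusted p = 0.0539) with median-ratio scaling. In U118 it was at -0.07 with that scaling and passed without aggregation replicate 1 (-0.88, adjusted p = 0.00444). UHRF1 to UHRF2, its paralog, went from 2.85 ± 0.40 to 2.33 ± 0.12 in U87, without overlap, and from 2.24 ± 0.38 to 3.14 ± 0.47 in U118, with overlap (SD, n = 3). DNMT3A to DNMT3B differed by -0.006 in U87, with overlap, and was lower in all U118 aggregation libraries (difference -1.64). DNMT1 to the sum of the TET genes was higher in all aggregation libraries of both lines, by 0.61 in U87 and 0.31 in U118.

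Regulators that are made in S phase were also set against PCNA, the sliding clamp of DNA replication. PCNA went from 212 ± 30.8 to 119 ± 11.9 TPM in U87 and from 443 ± 32.3 to 175 ± 85.2 in U118 (SD, n = 3), with log2 fold changes of -0.83 (limma adjusted p = 0.00246) and -1.43 (adjusted p = 0.00506). UHRF1 to PCNA differed by 0.15 in U87, without overlap, and by 0.04 in U118, with overlap. DNMT1 to PCNA was higher in U87 aggregation by 0.53, without overlap, and by 0.21 in U118 with overlap. EZH2 to PCNA differed by 0.14 in U87, with overlap, and was higher in all U118 aggregation libraries by 1.32. MKI67, a marker of cycling cells, was at 76.9 ± 9.54 and 25.6 ± 7.28 TPM in U87 and at 52.2 ± 6.52 and 38.5 ± 10.6 in U118. Its log2 fold changes were -1.58 (limma adjusted p = 0.00178) and -0.46 (adjusted p = 0.157; 0.09 with median-ratio scaling).

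Among 18 proliferation genes, all tested, 6 were called lower in U87 and 9 in U118, beside 7.79% and 26.6% of all genes tested, and none was called higher. With median-ratio scaling 5 were called lower in U87, and 2 lower and 1 higher in U118. Their median log2 fold change was -0.78 in U87 and -0.97 in U118, but -0.52 and -0.42 with that scaling, which puts U87 lower. Their summed TPM was 3100 to 3390 in U87 control, 1830 to 1940 in U87 aggregation, 3190 to 3690 in U118 control and 1560 to 2410 in U118 aggregation libraries. CCNB1 had the lowest change in U87, at -1.62, and CCNA2 and TOP2A in U118, at -1.88 and -1.87. E2F1, a driver of S phase entry, was higher in U118 at any fold, at 0.75 (limma adjusted p = 0.0237). In U87 it was lower at any fold, at -0.97 (adjusted p = 0.000198), and MCM3 had 0.20 (adjusted p = 0.0996). The part of proliferation in the changes of the regulators was not tested.

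Partners of the DNA methyltransferases and of TET were called lower in 1 of 10 tested genes in U87 and in 7 of 10 in U118, with list medians of -0.39 and -1.28 (-0.14 and -0.75 with median-ratio scaling), beside 7.79% and 26.6% of all genes tested called lower. In U87 the called gene was NSD2, an H3K36 methyltransferase, at -1.44 (limma adjusted p = 0.000198). In U118 the lowest were CDCA7L at -1.65 and LIG1, the DNA ligase that seals replicated strands, at -1.50 (adjusted p = 0.00233 and 0.00146), while CDCA7, which works with the remodeller HELLS, had 0.63 (adjusted p = 0.0888). With median-ratio scaling 1 was called lower and 1 higher in U118. Proteins that read methylated CpG numbered 9, all tested, with none called in U87 and UHRF2 and MBD4 called lower in U118. MBD4 was no longer called with median-ratio scaling (-0.59), nor without control replicate 1 or 3 or aggregation replicate 2 or 3, each left out alone (-1.12 to -0.95). UHRF2 was at 36.5, 31.2 and 39.7 TPM in U118 control and at 9.56, 4.59 and 8.84 TPM in aggregation libraries, and its change of -2.13 (standard error 0.29, limma adjusted p = 0.000363) held with median-ratio scaling as a call.

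Enzymes of the methyl donor cycle, which make and recycle S-adenosylmethionine, numbered 8. The calls below stand beside 10.8% of all genes tested called in U87 and 35.3% in U118 (7.79% and 26.6% lower). SHMT1 was the only call in U87, at -1.28 (limma adjusted p = 0.000107), and MTR, the methionine synthase, the only call in U118, at -1.07 (adjusted p = 0.0066). MTR was at -0.58 with median-ratio scaling, where none of the list was called lower and 1 was called higher in U118, and it fell short of a call without aggregation replicate 2 (-0.97) or 3. AHCY, which clears S-adenosylhomocysteine, passed at any fold in opposite directions, at -0.62 in U87 (adjusted p = 0.00383) and 0.73 in U118 (adjusted p = 0.0184). Of the 8 genes around 2-oxoglutarate, IDH2 and IDH3B were called lower in U87, at -1.48 and -1.12. In U118, D2HGDH, which breaks down 2-hydroxyglutarate, and IDH3B were among the genes called lower, at -1.84 and -1.16, and IDH3G was called higher at 1.04 (0.92 without aggregation replicate 2, short of a call, as also without control replicate 1). With median-ratio scaling IDH3B was not called in either line, at -0.86 and -0.60. IDH1 had 0.26 in U87 and did not pass (adjusted p = 0.184).

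PRC2 subunits other than EZH2 had a list median of 0.07 in U87 and -0.92 in U118, of 11 tested. With median-ratio scaling it was 0.33 in U87 and -0.38 in U118. None was called in U87, where RBBP7 and PHF19 passed lower at any fold, at -0.96 and -0.92. In U118, 4 of the 11 were called lower, where 26.6% of all genes tested were: EED, the subunit that reads the PRC2 mark, at -1.81, MTF2 at -1.59, SUZ12 at -1.32 and JARID2 at -1.08 (-0.99 without control replicate 3, short of a call). EED and MTF2 were called also with median-ratio scaling, which makes 2. Of 18 PRC1 subunits, PCGF5 was called lower in U87 at -1.11 (-0.98 without control replicate 2 and -0.85 with median-ratio scaling, both short of a call), and in U118 it passed higher at any fold, at 0.70 (limma adjusted p = 0.0241). RYBP at -2.03, PHC3 at -1.39 and PCGF3 at -1.32 were called lower in U118, where median-ratio scaling left 1 called lower and 1 higher. SUZ12, JARID2, PCGF3 and, in U118, IDH3B were named after their values were seen.

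Of 17 tested writers, readers and partners of H3K9 methylation, 3 were called lower in U87 and 6 in U118, beside 7.79% and 26.6% of all genes tested, and 2 and 3 with median-ratio scaling. In U87 these were SUV39H1, an H3K9 trimethylase, at -1.64 (limma adjusted p = 0.000198), ATF7IP2 at -1.17, which reached the filter through 3 control and 1 aggregation library, and TASOR, a subunit of the HUSH complex, at -1.15. TASOR, named after its values were seen, was at 9.69, 29.4 and 13.0 TPM in control libraries, and its change was -0.71 without control replicate 2. It passed at any fold in 5 of 13 alternatives, with a limma adjusted p of up to 0.121, without aggregation replicate 2. In U118 the lowest were the HP1 genes CBX3 at -1.65 and CBX5 at -1.61, while SUV39H1 had -0.16 (adjusted p = 0.585). SETDB2, another of the 6 and named after its values were seen, reached the filter only through control libraries. Histone demethylases of H3K9 and H3K27 had no call in U87, where KDM6B and KDM3B passed lower at any fold, at -0.87 and -0.75. In U118, KDM4D and PHF2 were called lower, at -1.62 and -1.14. KDM4D reached the filter only through control libraries, and PHF2 was not called with median-ratio scaling (-0.65).

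**Figure D1:**
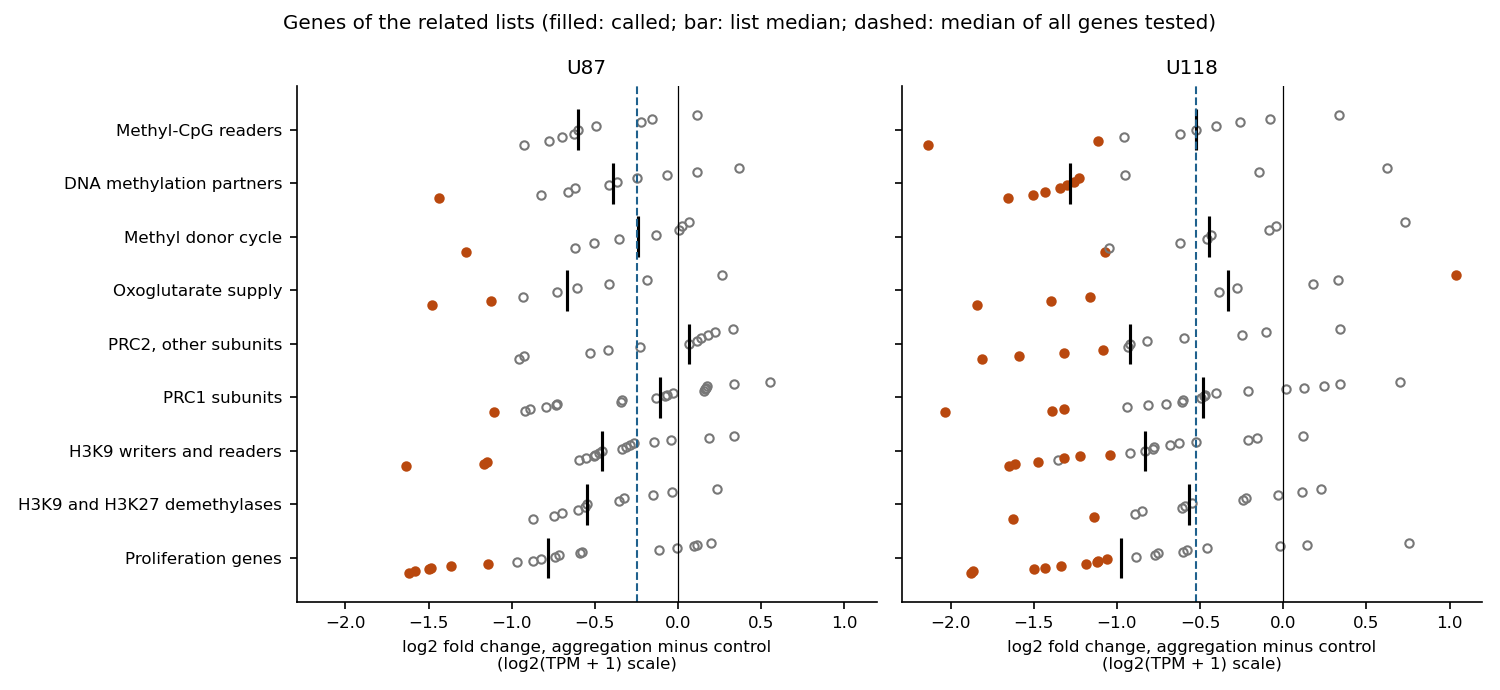
Log2 fold change (horizontal axis, log2(TPM + 1) scale) of each tested gene of 9 lists in U87 and U118, filled where called, with a bar at each list's median and a dashed line at the median of all genes tested (-0.24 and -0.52). DNA methylation partners and PRC2 subunits lie further down in U118, with medians of -1.28 and -0.92, or -0.75 and -0.38 with median-ratio scaling, which is not drawn.

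Germline genes that are known to be kept off by promoter DNA methylation in somatic cells were read as well. DNA methylation was not measured here, and a link of these genes to the regulators was not tested. Of 14, 13 were below 1 TPM in all 12 libraries and 3 were listed at 0 in all of them, so none was tested. The exception was GTSF1, named after its values were seen, which was listed at 0 in all U87 control libraries and was at 0.553, 1.12 and 1.35 TPM in U87 aggregation libraries. In U118 it was at most 0.344 TPM in control and listed at 0 in aggregation libraries.

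For each regulator above the filter, the genes with the most similar centred log2(TPM + 1) values over the 12 libraries were sought among the 8212 genes whose mean reached 10 TPM. The smallest root mean square differences were 0.09 for TRIM28 with GCAT, 0.094 for SETDB1 with C9orf78, 0.11 for TET3 with GSK3B, 0.111 for DNMT3B with GGA2 and 0.116 for UHRF1 with STMN1. EZH2 was nearest to VKORC1L1 (0.124), DNMT1 to PCOLCE (0.148) and TET2 to ANKRD17 (0.159). DNMT3A had no gene as near, with LAMC1 at 0.325. Among the regulators themselves TET3 and UHRF1 (0.261) and DNMT1 and TET3 (0.275) were the closest pairs, and DNMT1 and DNMT3A (0.89) the furthest apart.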

How the data were processed

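mRNA-seq libraries of the 12 samples were mapped to 4 groups by their titles. The authors deposited gene TPM values, 1 table per cell line. The submitters' processing notes name GRCh38, FastQC 0.11.2, Trimmomatic 0.36, HISAT2 2.0 and bedtools 2.26.0, and the quantifier and annotation are not given in the sources used here. TPM keeps no counts, so depth is unknown and the error given is the spread over 3 libraries.

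The tables were joined by Ensembl identifier. Of 58174 identifiers 57836 are in GENCODE 29, whose GRCh38 positions are printed. log2(TPM + 1) was fitted with limma 3.58.1 in R 4.3.3 (eBayes with trend), and the code was tested on simulated data first. Tables and figures were made with Python 3.11.15, pandas 2.3.3 and matplotlib 3.10.9. Likeness is the root mean square difference of values centred on each gene's mean. Promoter windows come from RefSeq (GRCh38.p14), where 9 of the 10 regulators had a window. Of the related lists, the text names at most the 2 largest and 2 smallest changes per line, EZH1, UHRF2, PCNA, MKI67 and those marked as named later. Members and lists were chosen with earlier results of these data known. The alternatives were a pseudocount of 0.1, no filter, median-ratio scaling, a filter at a mean of 10 TPM, TPM without the 37 mitochondrially encoded genes, a replicate block, eBayes without trend, no fold threshold and leaving out each library. With a library left out, the genes of the fit over all libraries were kept. Some genes of the lists are not reported here by name.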

Additional observations from a re-analysis of the deposited data

Results flagged for a closer look

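The changes of 3 of the 9 regulators tested passed limma's interaction test between the lines at any fold, and 1 was called, beside 38.1% and 30.5% of all 16382 genes tested. On the log2(TPM + 1) scale, U118 minus U87, the difference was -1.62 for DNMT3A (adjusted p = 0.00875), -0.92 for DNMT1 (adjusted p = 0.00144) and -0.98 for TET2 (adjusted p = 0.00861). TET2 reached the filter through the 3 U118 control libraries and 1 U87 library, so its value is a description only. All 3 U118 aggregation libraries were below all 3 U118 control libraries for each of them, as for 42.9% of all genes tested in U118. DNMT3A and TET2 reached the U118 filter only through control libraries, so they had to differ there. In U87 only DNMT1 was lower without overlap, beside 39.8% of all genes tested, and its change was -0.03 (limma adjusted p = 0.84) with median-ratio scaling. The differences between the lines rest on the libraries labelled U118 aggregation, which stood nearer to U87 than to U118 control.

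The log2 ratio of EZH2 to EZH1 moved in opposite directions, by -0.89 in U87 and 0.51 in U118 (aggregation minus control), with every library of a group on its side. This difference between the lines was not tested.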

How the results depend on the processing

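All alternatives were planned. In U87 no regulator was called, and 1 was (TET3, at -1.15) with a pseudocount of 0.1 and 5 without a fold threshold; the count was 0 without any 1 library. In U118, 5 were called, 2 with a mean of at least 10 TPM, where fewer are tested, and 1 with median-ratio scaling. The U118 count was 5 without mitochondrially encoded genes, and 4 to 6 without a library. For a difference between the lines 1 was called, 2 with a pseudocount of 0.1, 0 with a mean of at least 10 TPM (limma; 5 regulators had an unadjusted p under 0.05 in the fit as reported), 3 without a fold threshold, and 1 to 2 without a library. It was 2 without replicate 2 of U87 control, of U87 aggregation, of U118 control or of U118 aggregation, or without replicate 1 of U118 control or of U118 aggregation. Over the related lists 14 genes were called in U87, 43 without a fold threshold. In U118 there were 37, which became 58 without a fold threshold and 17 with median-ratio scaling. Over all genes tested, 10.8% were called in U87 and 35.3% in U118, and 39.1% and 51.3% passed at any fold. Signs turned with median-ratio scaling for SETDB1 (0.23) and UHRF2 (0.086) in U87, for EZH2 (0.43), TRIM28 (0.14), SETDB1 (0.080) and MKI67 (0.091) in U118, and for TET3 (0.018) and TRIM28 (0.11) in the difference. They turned without mitochondrially encoded genes for SETDB1 in U87 (0.12) and EZH2 in U118 (0.077). With each library left out, SETDB1 in U87 ranged from -0.044 to 0.036 (above 0 without control replicate 3 or aggregation replicate 2), UHRF2 in U87 from -0.41 to 0.028 (above 0 without control replicate 2) and EZH2 in U118 from -0.31 to 0.013 (above 0 without control replicate 3). None of these reversed values passed, and beyond what is stated the cause was not tested. No label says that replicate numbers pair the samples. Deviations of same-numbered libraries correlated at -0.07 to 0.01 in U87, against -0.06 to 0.08 for libraries of other numbers. In U118 the values were 0.05 to 0.14 against -0.11 to 0.04, so every same-numbered pair lay above every other pair. Pairing in U118 was not tested. With the replicate block 0 regulators were called in U87, 5 in U118 and 1 for the difference, and 13 and 39 genes of the related lists. At any fold, DNMT1 (adjusted p = 0.0936) and TET3 (0.0571) in U87 no longer passed with the block. TPM gives no depth, so values near 0, as for TET1, have no detection limit.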
